A study of Mus musculus with 2 samples.

Results

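The genes that encode collagen chains were followed in CE1-4, a cell line from a mouse prostate cancer. The members were all genes of the deposited count table whose symbol is Col, a number, a lower-case a and a number, as in Col4a1. There were 44 such genes among the 23420 symbols of the table. The 5 other symbols that begin with Col, namely Col4a3bp, Colec10, Colec11, Colec12 and Colq, do not have that form. RNA was sequenced from CE1-4 cells exposed to prostaglandin E2 (PGE2), a product of the cyclooxygenase pathway, for 6 h, and from untreated CE1-4 cells. Each group was 1 library, so no difference below has a replicate check, and every interval covers counting error only. The labels give neither a dose nor a vehicle for PGE2, nor a time in culture for the untreated cells, so PGE2 and these conditions cannot be told apart. The series title places the cells in a study of cyclooxygenase 2 and prolactin signaling between tumor and stroma.

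Collagens are secreted or membrane-bound proteins in which chains wind around each other into a triple helix. The helix needs glycine at every 3 residues, which gives the chains their Gly-X-Y repeats. Fibrillar collagens form the tough fibrils of connective tissue, type IV forms the sheet of basement membranes on which epithelial cells sit, and type VI forms beaded filaments near the cell surface. FACIT collagens attach to fibrils, multiplexins carry a C-terminal domain from which angiogenesis inhibitors are cleaved, and type VII anchors basement membranes to the matrix below. In the prostate, as in other glands, type IV collagen lies in the basement membrane around the epithelium, while type I and type III fibrils are made mainly by stromal fibroblasts.

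The repeat can be read in the coding sequences of the GENCODE M21 annotation (GRCm38). It is part of what makes a chain a collagen, so its presence in the members is a description only. Below are the first 54 bases of the longest unbroken Gly-X-Y run of 5 abundant members from different classes, 5′ to 3′, with the glycine codons (GGN) in capitals.
Col4a1: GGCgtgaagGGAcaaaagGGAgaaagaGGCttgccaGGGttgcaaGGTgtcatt
Col5a1: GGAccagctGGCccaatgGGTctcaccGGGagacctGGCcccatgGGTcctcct
Col6a1: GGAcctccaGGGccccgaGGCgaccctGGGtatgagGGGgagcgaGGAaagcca
Col12a1: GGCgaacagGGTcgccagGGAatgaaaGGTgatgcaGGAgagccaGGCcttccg
Col18a1: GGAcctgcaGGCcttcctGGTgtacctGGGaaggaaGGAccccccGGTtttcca
In each stretch a GGN codon recurs every 3 codons. Counted over the whole coding sequence, the longest run held 338 repeats in the fibrillar Col5a1, 87 in Col6a1, 40 in Col4a1, 32 in Col12a1 and 30 in Col18a1. The 11 fibrillar genes had runs of 216 to 344 repeats, the 6 type IV genes runs of 39 to 66, and the 44 members together runs of at least 23. A run of 23 or more was found in 18 of the 20349 other coding genes of the table. Collagen genes also had many coding exons, with a median of 47 against 7 over all annotated coding genes of the table, and the longest transcript had a median GC content of 55.1% against 48.9%.

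Collagen RNA was a small and similar part of both libraries, and basement membrane chains were its largest class. Over all members 24619 counts were found in the PGE2 library and 23916 in the untreated library. These were 14.0 of every 10000 counts (Wilson 95% interval 13.8 to 14.2) in PGE2 cells and 14.1 (14.0 to 14.3) in untreated cells. Type IV chains held 38.8% of the collagen counts in PGE2 cells and 38.5% in untreated cells. The multiplexins Col18a1 and Col15a1 held 16.1% and 15.6%, the FACIT genes 14.1% and 14.3%, type VI 13.1% and 13.4%, the fibrillar genes 9.96% and 10.04%, and Col7a1 7.77% and 8.02%. The transmembrane genes together held 0.130% and 0.180%. The intervals of the 2 libraries overlapped in every class, so the make-up of the collagen RNA was alike within counting error. These are shares of counts, which grow with gene length, and the order of the classes changes with length taken into account. Of the summed level per kilobase of annotated exon, type IV held 40.6% in PGE2 cells and 40.4% in untreated cells. Type VI then held 19.9% and 20.1%, the multiplexins 17.4% and 16.8%, the fibrillar genes 8.44% and 8.57%, and the FACIT genes 7.69% and 7.81%.

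**Figure D1:**
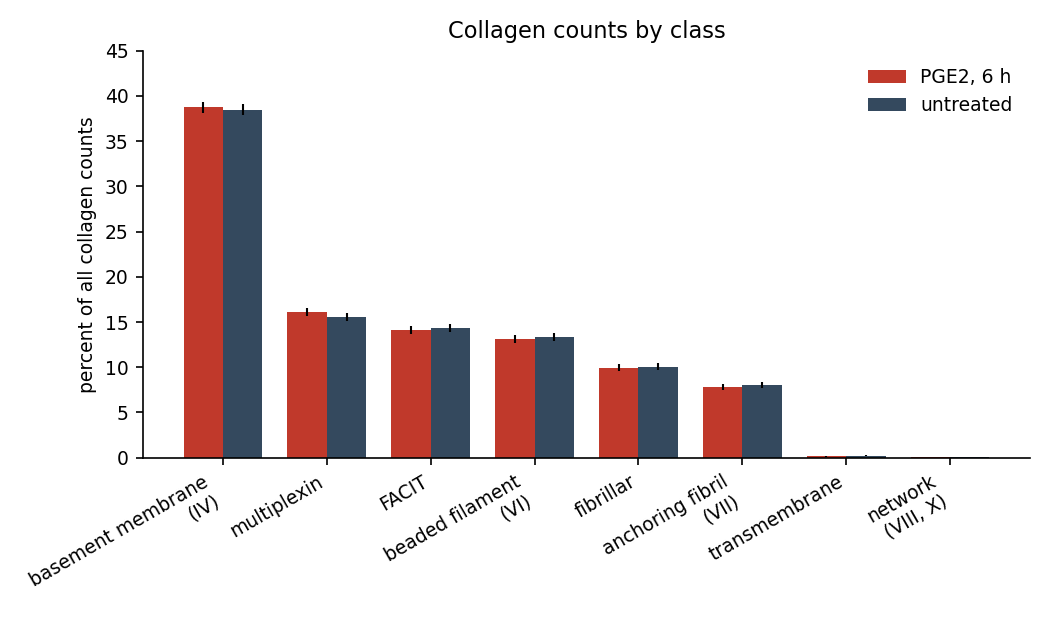
Bars give the percent of all collagen counts that fell on each class, in the PGE2 library and in the untreated library, with Wilson 95% intervals that cover counting error. Counts are not divided by gene length. Type IV is the tallest class at 38.8% and 38.5%, and the 2 bars of each class have overlapping intervals.

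A few genes carried almost all of the collagen RNA. Of the 44 members, 17 reached 1 CPM (counts scaled to library size, 1 CPM being 17.6 counts in the PGE2 library and 16.9 in the untreated library) in at least 1 library and were compared, 17 were counted below that level, and 10 had no count in either library. There were 13 members at 10 CPM or more and 7 at 100 CPM or more in a library. Col4a1 alone held 27.0% of the collagen counts in PGE2 cells and 26.9% in untreated cells. The 7 members Col4a1, Col18a1, Col12a1, Col6a1, Col4a2, Col7a1 and Col5a1 together held 89.2% and 88.4%.

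Levels of different genes were set side by side per kilobase of annotated exon, as CPM per kilobase. On that scale Col4a1 was highest, at 50.6 in PGE2 cells and 51.1 in untreated cells. It was followed by Col6a1 (31.9 and 32.4) and Col18a1 (30.5 and 29.7), whose counting intervals overlapped in the PGE2 library but not in the untreated library. Col4a2 came next (17.5 and 16.7), then Col5a1 (12.75 and 12.96) and Col12a1 (11.9 and 12.3), which overlapped each other in both libraries, then Col7a1 (10.5 and 11.1), Col4a5 (6.50 and 7.54) and Col6a2 (4.05 and 4.39). Col16a1, Col27a1 and Col15a1 lay between 1.65 and 2.01 in both libraries and could not be ordered beyond their intervals. Col6a3 and Col1a1 were below 1, and Col4a6, Col5a3 and Col17a1 were lowest of those compared, at 0.179 to 0.413. With the longest transcript as the length, Col18a1 (38.2 and 37.3) stood above Col6a1 (34.1 and 34.6), and Col12a1 (15.8 and 16.3) above Col5a1 (12.9 and 13.1). Col6a2 (6.86 and 7.45) was then within a small margin of Col4a5 (6.68 and 7.75). With the coding sequence as the length, Col6a2 (10.9 and 11.8) stood above Col4a5 (8.61 and 9.98).

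**Figure D2:**
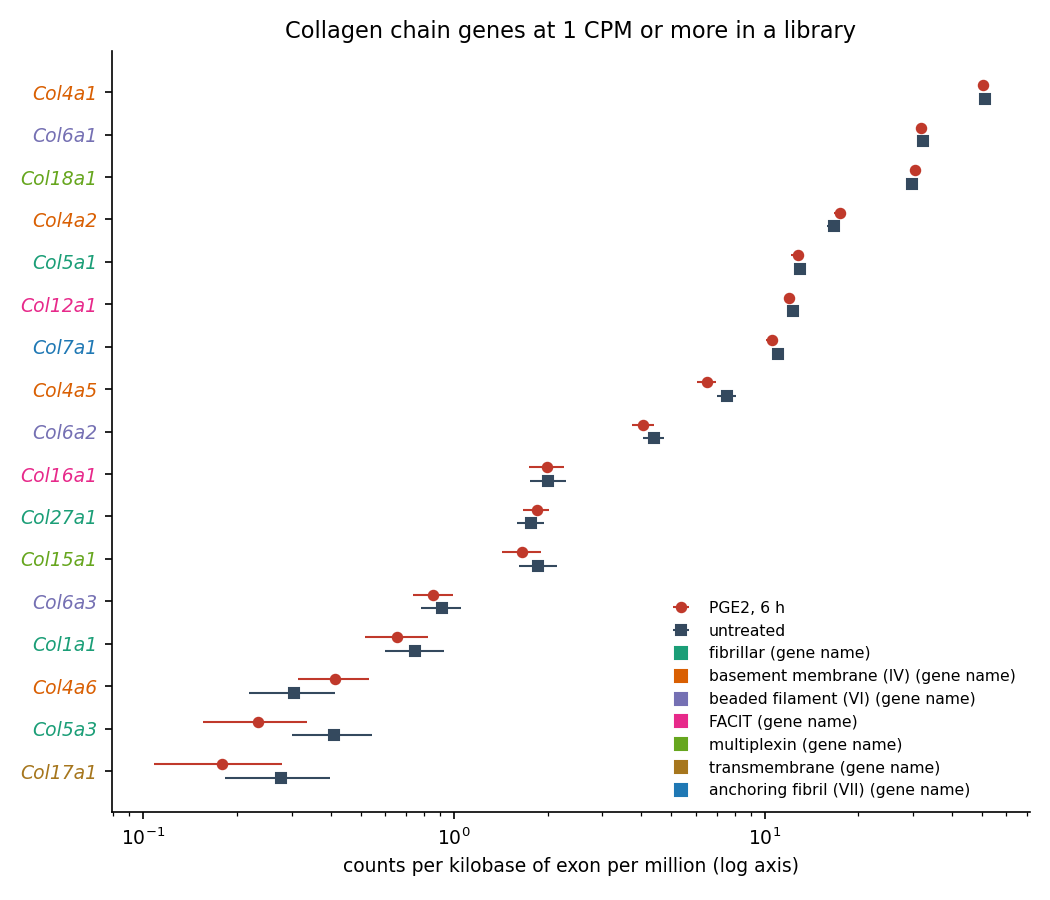
Points give the level of each of the 17 compared collagen genes as CPM per kilobase of exon, on a log axis, in the PGE2 library (circles) and the untreated library (squares), with exact 95% Poisson intervals; the colour of a gene name gives its class. Col4a1 is highest at 50.6 and 51.1, and the points of the 2 libraries lie close together except for the scarce genes at the bottom.

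The basement membrane genes were led by Col4a1 and Col4a2, which encode the chains of the type IV network found in nearly all basement membranes. Col4a1 (chromosome 8, 11198423 to 11312826, minus strand) had 6654 counts in PGE2 cells and 6428 in untreated cells, 377 CPM (95% interval 368 to 387) and 381 CPM (372 to 391). Its log2 ratio of PGE2 over untreated was -0.014 (-0.06 to 0.04). Col4a2 (chromosome 8, 11312805 to 11449287, plus strand) had 2041 and 1859 counts, 116 and 110 CPM, and a log2 ratio of 0.07 (-0.02 to 0.16). Both intervals included 0 on the log2 scale, and the intervals exclude a difference beyond 1.12-fold for either gene.

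Col4a5 was the abundant member with the clearest difference between the libraries. It encodes an X-linked chain of the type IV networks of kidney, lung and some epithelia. Col4a5 (chromosome X, 141475385 to 141689234, plus strand) had 770 counts in PGE2 cells and 854 in untreated cells, 43.7 CPM (40.6 to 46.9) and 50.6 CPM (47.3 to 54.2). Its level was lower in PGE2 cells by a log2 ratio of -0.21 (-0.36 to -0.07), a change of -13.8% with an interval of -21.9% to -4.83%. Among the 2906 compared genes whose summed count was at least 1000 and under 3000, log2 ratios had a standard deviation of 0.09, and 1.996% lay farther from 0 than that of Col4a5. Its neighbour Col4a6 (chromosome X, 141165403 to 141474076, minus strand), which encodes the partner of that chain in some epithelial basement membranes, had 58 counts in PGE2 cells and 41 in untreated cells. Its log2 ratio was 0.43 (-0.17 to 1.05), which includes 0.

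The type IV genes lie head to head in pairs and are read in opposite directions, so members of a pair can be compared within a library. Col4a1 was 2.89 times (2.75 to 3.04) the level of Col4a2 per kilobase in PGE2 cells and 3.07 times (2.91 to 3.23) in untreated cells. Col4a5 was 15.8 times (12.1 to 20.9) the level of Col4a6 in PGE2 cells and 24.7 times (18.1 to 34.7) in untreated cells. The change of that ratio between the libraries was 0.638 (0.412 to 0.980). For Col4a1 over Col4a2 it was 0.943 (0.877 to 1.01). The interval for Col4a5 over Col4a6 excludes 1, but it reuses the Col4a5 counts given above and is not a separate result. How often such pair ratios exclude 1 among other genes was not computed. The remaining pair was scarce, with 14 and 11 counts of Col4a3 and 8 and 11 counts of Col4a4 in PGE2 and untreated cells.

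The promoters of the 2 measured pairs are shown because their genes start close together and yet were counted at unequal levels. Each is the RefSeq window of 250 bases before to 50 bases after the gene's start (GRCm38.p6), 5′ to 3′ on the gene's own strand. Capitals mark GGGCGG or its complement CCGCCC, the core of sites for Sp1-like factors, and CCAAT or its complement ATTGG. The windows are chr8:11312777-11313076 (minus) for Col4a1, chr8:11312555-11312854 (plus) for Col4a2, chrX:141475169-141475468 (plus) for Col4a5 and chrX:141474027-141474326 (minus) for Col4a6.
Col4a1: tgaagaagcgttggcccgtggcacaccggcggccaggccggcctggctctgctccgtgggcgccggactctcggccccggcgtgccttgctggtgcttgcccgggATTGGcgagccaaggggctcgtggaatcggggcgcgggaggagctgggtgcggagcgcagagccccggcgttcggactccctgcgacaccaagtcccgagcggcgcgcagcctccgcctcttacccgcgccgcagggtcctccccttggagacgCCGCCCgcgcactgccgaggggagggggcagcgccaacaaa
Col4a2: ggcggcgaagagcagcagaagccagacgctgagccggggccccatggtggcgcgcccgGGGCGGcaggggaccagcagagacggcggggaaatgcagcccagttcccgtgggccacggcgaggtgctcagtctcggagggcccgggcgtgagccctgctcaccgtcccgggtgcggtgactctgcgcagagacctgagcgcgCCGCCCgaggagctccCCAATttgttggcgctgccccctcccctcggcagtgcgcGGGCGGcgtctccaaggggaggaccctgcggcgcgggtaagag
Col4a5: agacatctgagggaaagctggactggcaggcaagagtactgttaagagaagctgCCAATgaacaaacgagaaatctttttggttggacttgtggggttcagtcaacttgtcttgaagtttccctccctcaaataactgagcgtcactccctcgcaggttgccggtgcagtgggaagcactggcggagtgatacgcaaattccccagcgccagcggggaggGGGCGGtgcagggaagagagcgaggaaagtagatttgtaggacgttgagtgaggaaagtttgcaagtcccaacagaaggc
Col4a6: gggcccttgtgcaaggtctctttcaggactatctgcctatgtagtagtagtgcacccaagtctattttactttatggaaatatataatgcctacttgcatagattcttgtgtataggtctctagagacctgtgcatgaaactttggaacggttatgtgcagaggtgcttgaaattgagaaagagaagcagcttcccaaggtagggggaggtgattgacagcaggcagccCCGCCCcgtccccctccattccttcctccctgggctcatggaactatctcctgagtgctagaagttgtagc
The annotated starts of Col4a1 and Col4a2 overlap by 22 bases, and their windows share 78 bases read on opposite strands. In GENCODE the starts of Col4a5 and Col4a6 are 1309 bases apart and their windows do not meet. The Col4a1 and Col4a2 windows had a GC content of 74.0% and 73.7%, against 52.7% for Col4a5 and 48.3% for Col4a6. GGGCGG in either direction occurred 1 time in the Col4a1 window, 3 times in that of Col4a2, and 1 time each in those of Col4a5 and Col4a6, and 35.7% of all 32851 promoter windows held it. The match in the Col4a1 window lies in the 78 shared bases and is the same site as 1 of the 3 in the Col4a2 window, read on the other strand. CCAAT in either direction occurred 1 time each for Col4a1, Col4a2 and Col4a5 and was not in the Col4a6 window, and 37.4% of all windows held it. TATAAA in either direction was in none of these 4 windows and in 13.6% of all. Of the 38 windows found for 35 members, 23 held GGGCGG, 13 CCAAT and 5 TATAAA. These matches describe the letters and do not show that a factor binds.

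**Figure D3:**
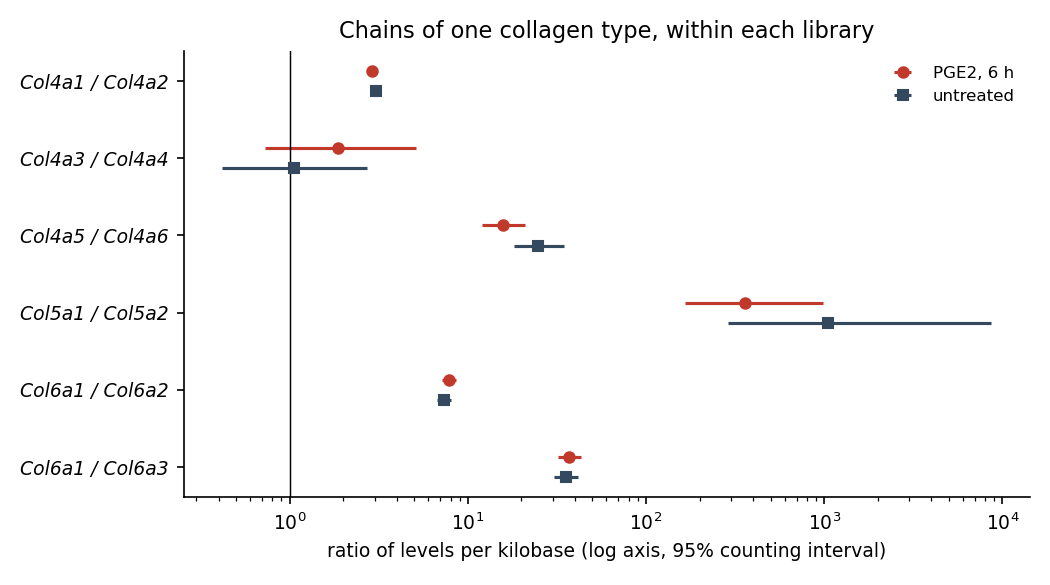
Points give the ratio of levels per kilobase of annotated exon between chains of one collagen type within the PGE2 library (circles) and within the untreated library (squares), on a log axis with 95% counting intervals. Col4a1 over Col4a2 is near 3 in both libraries, and the vertical line marks equal levels. Col5a1 over Col5a2 is at 359 (165 to 981) in the PGE2 library and 1048 (290 to 8663) in the untreated library, on 6 and 2 counts of Col5a2.

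Type VI collagen, assembled in the cell from an α1, an α2 and a longer chain, was represented unequally by its chains. Col6a1 (chromosome 10, 76708792 to 76726168) had 2462 counts in PGE2 cells and 2395 in untreated cells, 140 and 142 CPM, and a log2 ratio of -0.02 (-0.11 to 0.06). Col6a2, which lies on the same chromosome, had 594 and 617 counts and a log2 ratio of -0.12 (-0.28 to 0.05). Col6a3, which encodes a longer partner chain, had 181 and 184 counts and a log2 ratio of -0.09 (-0.39 to 0.22). Per kilobase Col6a1 was 37.2 times (31.9 to 43.4) the level of Col6a3 in PGE2 cells and 35.6 times (30.6 to 41.5) in untreated cells. Over Col6a2 it was 7.88 times in PGE2 cells and 7.38 times in untreated cells with all annotated exons as the length. With coding sequence as the length these were 4.18 and 3.92 times, so the size of that gap depends on the gene model. Col6a4, Col6a5 and Col6a6, whose chains can take the place of the long chain, had no count in either library.

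The multiplexin gene Col18a1, whose chain is a basement membrane component and the source of endostatin, was the next most counted member after Col4a1. It had 3772 counts in PGE2 cells and 3519 in untreated cells, 214 CPM (207 to 221) and 209 CPM (202 to 216), and a log2 ratio of 0.04 (-0.03 to 0.10). The related Col15a1 had 185 and 200 counts and a log2 ratio of -0.18 (-0.47 to 0.12). The FACIT gene Col12a1, which encodes a large chain on fibril surfaces, had 3205 and 3156 counts, 182 and 187 CPM, and a log2 ratio of -0.04 (-0.11 to 0.03). The FACIT gene Col16a1 had 237 and 229 counts and a log2 ratio of -0.015 (-0.28 to 0.25). Col7a1, the anchoring fibril gene made by epithelia such as the epidermis, had 1912 and 1919 counts, 108 and 114 CPM, and a log2 ratio of -0.07 (-0.16 to 0.02). None of these 5 intervals excluded 0.

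Among the fibrillar genes, chains that usually assemble together were counted at very unequal levels. Col5a1, whose chain helps start fibrils, had 1909 counts in PGE2 cells and 1856 in untreated cells, 108 and 110 CPM, and a log2 ratio of -0.02 (-0.12 to 0.07). Col5a2, its usual partner, had 6 counts in PGE2 cells and 2 in untreated cells. Per kilobase of all annotated exons, Col5a1 was 359 times (165 to 981) the level of Col5a2 in PGE2 cells and 1048 times (290 to 8663) in untreated cells, and these intervals overlap. With the longest transcript as the length, Col5a1 was 251 times the level of Col5a2 in PGE2 cells and 731 times in untreated cells.

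The chains of type I collagen, the main fibril of connective tissue, were scarce. Col1a1 had 76 counts in PGE2 cells and 83 in untreated cells, 4.31 and 4.92 CPM, with a log2 ratio of -0.19 (-0.66 to 0.28). Col1a2, with which Col1a1 forms type I collagen, had 2 counts in PGE2 cells and 0 in untreated cells, where a count of 0 allows up to 0.178 CPM, taken as 3 counts. Per kilobase of all annotated exons, Col1a1 was 71.9 times (19.2 to 605) the level of Col1a2 in PGE2 cells. With that limit in place of 0, it was 52.4 times in untreated cells. With the longest transcript as the length it was 34.3 times in PGE2 cells and, with the same limit, 24.95 times in untreated cells. The size of the gap thus depends on the gene model. The 2 values for untreated cells leave out the counting error of Col1a1, so they are not full lower bounds. Col27a1, a fibrillar gene of cartilage and other tissues, had 423 and 388 counts and a log2 ratio of 0.06 (-0.14 to 0.26).

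Of the 4 compared fibrillar genes, 1, the scarce Col5a3, had an interval below a ratio of 1, against 5.65% of all compared genes. The interval of Col3a1, which was too scarce to be compared, also lay below 1. Col5a3 (chromosome 9, 20770050 to 20815067), which encodes a less common type V chain, had 28 counts in PGE2 cells and 47 in untreated cells. Its log2 ratio was -0.80 (-1.54 to -0.11), and 7.42% of the 1226 compared genes whose summed count was at least 17 and under 100 lay farther from 0. Col3a1, the chain of type III fibrils, had 3 counts in PGE2 cells and 16 in untreated cells, 0.170 CPM (0.035 to 0.497) and 0.949 CPM (0.542 to 1.54). It stayed under the level for comparison with a log2 ratio of -2.30 (-4.90 to -0.67). Over the 15699 genes with any count, 0.331% passed 2-fold lower with an interval that excludes 1, as Col3a1 did. Col2a1 had 0 counts in PGE2 cells and 1 in untreated cells, Col11a2 had 5 and 6, Col24a1 had 1 in each library, and Col11a1 had none.

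The transmembrane collagens were scarce, and of these only Col17a1 reached 1 CPM. Col17a1, which anchors epithelial cells at hemidesmosomes, had 19 counts in PGE2 cells and 28 in untreated cells, a log2 ratio of -0.61 (-1.55 to 0.27). Col23a1 had 13 and 15 counts, and Col13a1 and Col25a1 had none in either library. The network genes of type VIII and type X were as scarce, with 1 count in each library for Col8a1, 3 and 2 for Col8a2 and 10 and 16 for Col10a1. Of the remaining FACIT genes, Col20a1 had 15 and 14 counts, Col22a1 and Col9a3 4 and 7 each, Col14a1 3 in each library, Col9a2 1 and 0, and Col9a1 and Col19a1 none. Col26a1 and Col28a1 also had no count, which allows up to 0.170 CPM in PGE2 cells and 0.178 CPM in untreated cells.

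Over all members, the comparison of PGE2 with untreated cells gave small ratios. No compared member passed the size rule, a ratio of at least 2-fold with a 95% Clopper-Pearson interval that excludes 1, in either direction, against 0.307% of all 11387 compared genes (0.0527% higher and 0.255% lower in PGE2 cells). The interval alone was below 1 for 2 of the 17 members, Col4a5 and Col5a3, and above 1 for none. These 2 were 11.8% of the members, against 12.3% of all compared genes in either direction, 6.61% above and 5.65% below. The members' share is near that background. Among the genes with at least 1000 counts, 1 of 9 members had an interval that excludes 1, against 18.5% of 5413 genes.

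The ratio was below 1 in PGE2 cells for 13 of the 17 members and above 1 for Col18a1, Col4a2, Col27a1 and Col4a6, against 50.6% below 1 over all compared genes. The median log2 ratio of the members was -0.04, beside -0.0014 over all compared genes. After trends on GC content and length were subtracted, the median was -0.013, and Col4a1 and Col5a1 came to lie above 1, so that 11 members were below. A 2-fold difference, higher or lower, was outside the interval for 14 of the 17, or 82.4%, against 92.4% of all compared genes. For the 7 members at 100 CPM or more, the farthest bound was 1.12-fold. Fewer cells that make a collagen and less of its RNA per cell cannot be told apart in such bulk libraries.

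**Figure D4:**
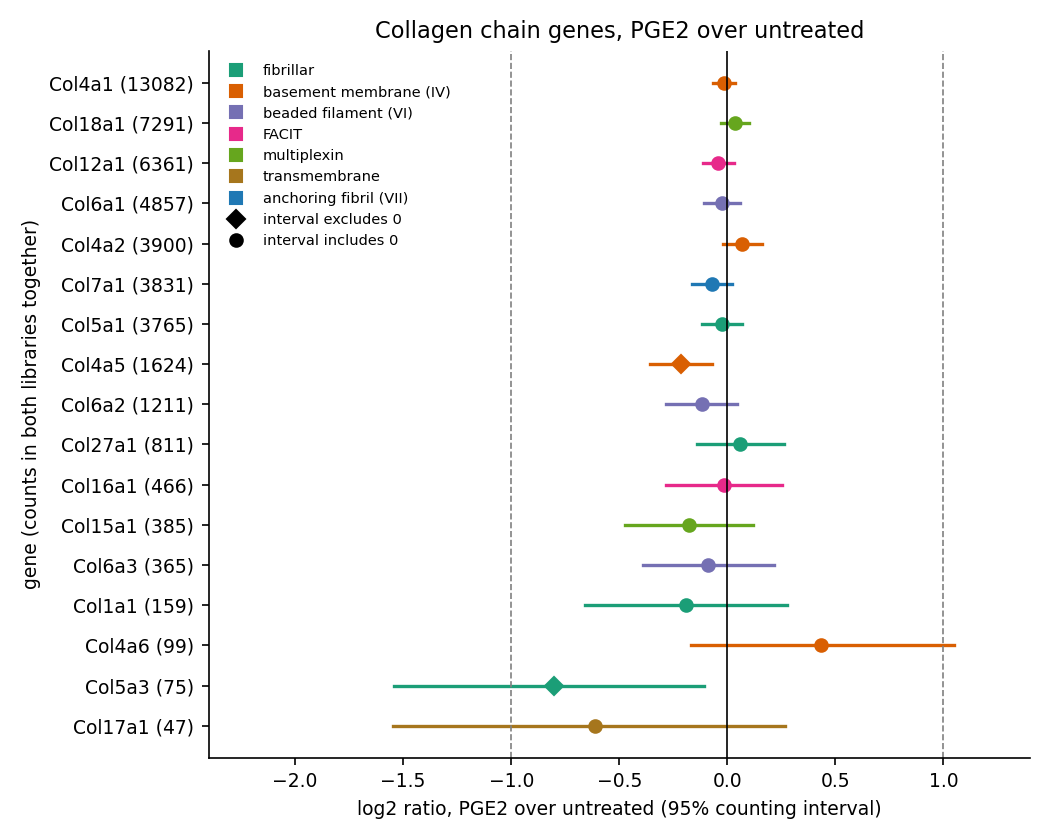
Points give the log2 ratio of PGE2 over untreated for the 17 compared collagen genes, ordered by their counts, with 95% Clopper-Pearson counting intervals; dashed lines mark 2-fold. The intervals of Col4a5 and Col5a3 (diamonds) lie below 0, and the other 15 include 0.

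**Figure D5:**
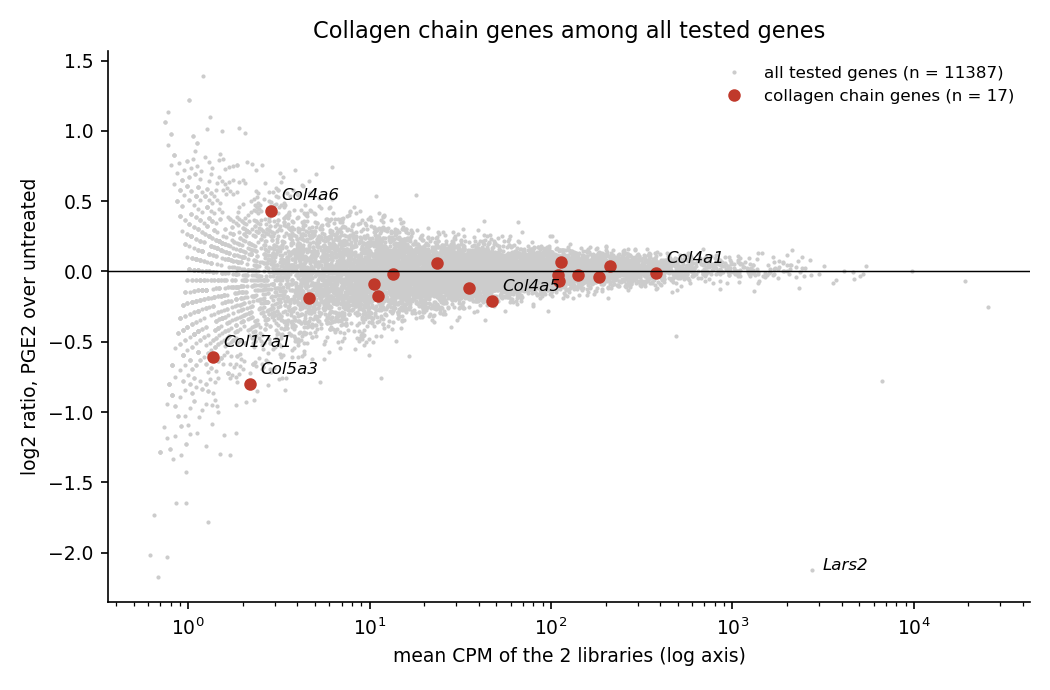
Each point is a gene compared between the libraries, with its mean CPM on a log axis and its log2 ratio of PGE2 over untreated. The 17 collagen genes lie within the cloud of all 11387 genes, with the scarce Col5a3 at -0.80 and Col17a1 at -0.61 as the lowest of them.

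The genes that modify, fold, export, cross-link, bind and degrade collagen were followed in 10 lists of 84 genes, of which 83 matched the table and 54 were compared. Their median log2 ratio was 0.0019. The interval was above 1 for 4 of them and below 1 for 3, which is 12.96% of those compared, against 12.3% of all genes. Under scaling on total counts, on DESeq2 size factors or on the upper quartile, 5 were above and 2 below, since Itgb1 then came above 1 and the interval of Crtap included 1. After the GC and length trends were subtracted the interval of Crtap also included 1. Against 0.307% of all genes, 1 of the 54 passed the size rule, the fibril-binding proteoglycan gene Fmod, with 11 counts in PGE2 cells and 24 in untreated cells.

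Prolyl hydroxylation, which stabilizes the triple helix, was well represented. P4hb, the shared subunit of the prolyl 4-hydroxylases and a disulfide isomerase, was at 1605 CPM in PGE2 cells and 1610 CPM in untreated cells (log2 ratio -0.0047, -0.03 to 0.02). Of the catalytic subunits, P4ha1 was at 387 and 388 CPM, P4ha2 at 64.1 and 60.8 CPM and P4ha3 at 3.35 and 2.61 CPM, each with an interval that included 1. Crtap, a partner of prolyl 3-hydroxylase, was lower, with 756 and 803 counts and a log2 ratio of -0.15 (-0.30 to -0.0062). The other 9 of the 10 compared genes had intervals that included 1.

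Among the 4 compared genes of lysyl hydroxylation and glycosylation, Plod2, which hydroxylates lysines of the telopeptides before cross-linking, had an interval above 1. It had 4921 and 4485 counts and a log2 ratio of 0.07 (0.01 to 0.13), near the standard deviation of 0.065 among genes with as many counts, and its interval included 1 after the GC and length trends were subtracted. Plod1, Plod3 and the glycosyltransferase Glt25d1 (Colgalt1) lay within 0.0033 to 0.05 on the log2 scale. Lox, the cross-linking oxidase, was at 779 CPM in PGE2 cells and 773 CPM in untreated cells, Loxl2 at 48.4 and 48.3 CPM and Loxl4 at 21.0 and 20.9 CPM. Pxdn, whose product cross-links the type IV network through sulfilimine bonds, was at 141 and 143 CPM.

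Of the listed genes of folding and export, Serpinh1, Fkbp10 and Larp6 were at or near 0 while others were expressed. Serpinh1, which encodes HSP47, a chaperone specific to collagen in the endoplasmic reticulum, had 1 count in each library, and Fkbp10, a prolyl isomerase that acts with it, had none. The related isomerase gene Fkbp14 had 447 counts in PGE2 cells and 456 in untreated cells, and the isomerase gene Ppib, listed with the prolyl hydroxylases, had 760 and 681. In the same list Larp6 had 1 count in each library, Tram2 had 9 and 13 counts and Creb3l1 had 10 and 18. Several export genes were well above that level. Mia3 (TANGO1), which loads collagen into large transport carriers, was at 242 CPM in PGE2 cells and 245 CPM in untreated cells. Sec23a was at 172 and 176 CPM and Kdelr2 at 142 and 140 CPM. None of the 8 compared genes of folding and export had an interval that excluded 1. Of the propeptide proteases, Adamts2 had 702 and 589 counts and a log2 ratio of 0.19 (0.03 to 0.35), and Bmp1 was at 60.5 and 63.6 CPM with a log2 ratio of -0.07 (-0.20 to 0.05).

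The laminin and nidogen partners of type IV collagen in the basement membrane were expressed at like levels in both libraries. Lamc1 was at 227 CPM in PGE2 cells and 219 CPM in untreated cells, Lama5 at 204 and 210 CPM and Nid1 at 163 and 164 CPM. Hspg2, the perlecan gene, had 74 counts in each library. All 10 compared genes of that list had intervals that included 1, but after the GC and length trends were subtracted that of Lamc1 lay above 1.

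Among the receptors, Itgb1, the β1 integrin subunit of all collagen-binding integrins, was at 1707 CPM in PGE2 cells and 1682 CPM in untreated cells (log2 ratio 0.02, -0.0025 to 0.04). Its α2 partner Itga2 was at 11.3 and 10.6 CPM, and the type IV collagen receptor Gpr126 (Adgrg6) at 110 and 116 CPM. The receptor tyrosine kinase Ddr1 was at 9.08 and 9.67 CPM, and its relative Ddr2 had 5 and 6 counts. All 7 compared receptor genes had intervals that included 1.

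Of the 5 compared turnover genes, Timp3 (log2 ratio 0.13, 0.10 to 0.16) and Pepd, which recycles proline from collagen fragments (0.21, 0.07 to 0.35), had intervals above 1, and Timp2 an interval below 1 (-0.12, -0.15 to -0.09). An interval excluded 1 for 12.3% of all compared genes, but for 46.0% of the 618 genes with at least 10000 summed counts, among which Timp3 and Timp2 fall, and for 11.2% of those with as many counts as Pepd. Mmp14, a membrane-bound collagenase, was at 207 CPM in PGE2 cells and 213 CPM in untreated cells with an interval that included 1. The interstitial collagenase gene Mmp13 had 17 and 16 counts, and the gelatinase genes Mmp2 and Mmp9 had 1 and 0 and 4 and 1 counts.

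The label of an epithelial prostate cancer line was checked against markers. All 7 epithelial markers were compared, with a summed level of 3021 CPM in PGE2 cells and 2925 CPM in untreated cells. Most of it was keratins, with Krt8 at 1276 and 1256 CPM, while Epcam was at 1.42 and 1.84 CPM and Cldn4 at 3.29 and 4.39 CPM. Of these 7, Krt18, Krt19, Krt7 and Cdh1 had intervals above 1, with log2 ratios of 0.04 to 0.11. Over all compared genes 6.61% lay above 1, and an interval excluded 1 in either direction for 46.0% of genes as abundant as Krt18 and Krt19 and 20.6% of those as abundant as Krt7 and Cdh1. The intervals of Krt8 (log2 ratio 0.02), Epcam (-0.37) and Cldn4 (-0.41) included 1. The part of these markers in the collagen values was not tested. Of 8 fibroblast markers 2 were compared, Pdgfra and Pdgfrb, and Thy1, Lum, Fap and Pi16 had no count in either library. The summed fibroblast level was 6.41 CPM in PGE2 cells and 7.53 CPM in untreated cells. The summed levels were 8.22 and 6.70 CPM for smooth muscle, mostly Smtn, 0.170 and 0.119 CPM for endothelium, and 3.86 and 4.21 CPM for leukocytes, mostly Cd68. The chondrocyte list summed to 21.6 and 21.9 CPM, nearly all of it Sox9, with Comp and Matn1 at 0 in both libraries.

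The libraries held 17582808 counts for PGE2 cells and 16908429 for untreated cells. The Lars2 row, with 18082 counts in PGE2 cells and 75505 in untreated cells, and the ribosomal RNA precursor row Rn45s, with 86196 and 141575, stood apart between them. Exons of 13 members overlap those of another annotated gene, by at most 2.50% of the exon length for the compared members. How reads in such overlaps were assigned is not stated.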

How the data were processed

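Per the labels' protocols, libraries of CE1-4 RNA were prepared with a stranded total RNA kit from Illumina. Trimmomatic, TopHat2, Bowtie, HTSeq and the build mm10 appear in the submitters' processing notes. Their versions, the annotation and the strand setting were not given in the sources used here. Raw read counts per gene symbol, with no normalization, were deposited by the authors for 2 libraries of 17582808 (PGE2) and 16908429 (untreated) counts. Each column name repeats a sample title.

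Counts were scaled with edgeR 4.0.16 (R 4.3.3) by trimmed mean of M values to CPM. Log2 ratios of PGE2 over untreated carry a prior of 0.5 counts scaled to library size and 95% Clopper-Pearson intervals, and levels carry exact Poisson intervals. The change of a chain ratio between the libraries is a conditional odds ratio with an exact interval. With 1 library per group no p-value was computed. Genes at 1 CPM or more in at least 1 library were compared. Exon lengths, coordinates and coding sequences are from GENCODE M21 (GRCm38, the assembly also called mm10), and promoter windows from RefSeq (GRCm38.p6). The runs of glycine codons were found in the longest annotated coding sequence.

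The members and gene lists were chosen with earlier results of these data known. Members were named in full at 10 CPM or with an interval that excluded 1, and of the lists those with such an interval and up to 3 more by level. Col3a1, Serpinh1, Fkbp10 and other scarce genes were named after their values were seen. There were 9 list genes matched through RefSeq synonyms, and 1, Pxdnl, was unmatched. Ratios and intervals were also run on simulated data at these depths. There the size rule called 23 of 50 differences set at 2-fold and 49 of 50 set at 3-fold. It also called 22 of 11200 genes set at no difference. The simulated data held counting error only, and no differences were set in the scarcest genes. Spread between cultures was not tested. Alternatives were other scalings (total counts, DESeq2 1.42.0 size factors, upper quartile), a prior of 5, no minimum or 5 CPM, a 99% interval, 1.5-fold, other gene lengths, and lowess trends on GC content and length.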

Additional observations from a re-analysis of the deposited data

How the results depend on the processing

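No paired analysis was possible because each group holds 1 library, and for the same reason no replicate could be left out. The count of 0 collagen genes past the size rule became 1 with no minimum level (Col3a1) and 1 at 1.5-fold (Col5a3), and was 0 under the scalings, the other prior, the 5 CPM minimum, the 99% interval and the trend subtraction. The 2 collagen genes with an interval that excludes 1 became 1 at a minimum of 5 CPM and 1 with a 99% interval, Col4a5 in each case, and 3 with no minimum level, which adds Col3a1. Scaling on totals without Rn45s, Lars2 and Malat1 was chosen after seeing the data for the collagen counts and median, and it kept both genes. The collagen median log2 ratio was -0.013 after the GC and length trends were subtracted. The 85 alternative ratios of the 17 members lay within their counting intervals, but the scalings moved the ratios little, so this is a weak check. Subtracting the GC and length trends moved a member's ratio by at most 0.043 on the log2 scale, and Col4a1 and Col5a1 changed sign. Of 17 places in the order per kilobase, 9 were kept with the longest transcript and 11 with the longest coding sequence as length in PGE2 cells, and 10 and 9 in untreated cells. Collagen held 14.4 of every 10000 counts in PGE2 cells and 14.7 in untreated cells when Rn45s, Lars2 and Malat1 were left out of the totals. The list genes with an interval that excludes 1 fell to 3 with a 99% interval. Over all genes, 35 passed the size rule, 13 with a prior of 5, 83 with no minimum, 1 at 5 CPM, 15 with a 99% interval and 94 at 1.5-fold. Depth limits the scarce members: intervals of Col4a6, Col5a3 and Col17a1 reach beyond 2-fold.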

Other observations

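Long Gly-X-Y runs also occur in coding genes that are not named as collagens, and 18 such genes of the table had a run of at least 23 repeats. They include collectins, C1q-related secreted proteins and scavenger receptors. In CE1-4 cells 3 of them reached 1 CPM, namely the scavenger receptor genes Colec12, Scara3 and Scara5. Colec12, with a run of 49 repeats, had 445 counts in PGE2 cells and 421 in untreated cells and a log2 ratio of 0.016 (-0.18 to 0.21). Scara3, also with 49 repeats, had 653 and 651 counts and a log2 ratio of -0.06 (-0.22 to 0.10). Scara5, a ferritin receptor with 25 repeats, had 431 counts in PGE2 cells and 480 in untreated cells and a log2 ratio of -0.22 (-0.41 to -0.03), an interval below 1 beside 5.65% of all compared genes. The other 15 were below 1 CPM in both libraries, among them Sftpd, Marco and C1qb with no count.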
